A study of Mus musculus with 20 samples.

Results

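Gdf15 (growth differentiation factor 15) was followed by RNA-seq in AML-12, a line of immortalised mouse hepatocytes. It was selected by its gene name in the authors' deposited gene tables and is 1 gene of the 6261 listed in at least 1 table. It is listed in all 4 tables, and it is among the 2993 genes for which the tables together give counts in all 20 libraries. The 20 libraries fall into 4 groups of 5, namely WT (wild-type) cells without treatment, WT cells given 125 µM palmitate-BSA for 24 h, and Ripk3-/- cells without treatment or with the same palmitate. All groups are AML-12 cells, and no group is described as given bovine serum albumin (BSA) alone, so the fatty acid and its carrier cannot be told apart here. How Ripk3 was disrupted, in how many clones, and whether replicates were separate cultures is not stated in the labels. The p-values therefore speak only to the variation among these libraries, part of which may be technical.

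GDF15 is a distant member of the transforming growth factor beta (TGF-beta) superfamily that is made as a precursor, cut by proprotein convertases and secreted as a dimer. Its known receptor is GFRAL, a hindbrain protein that signals through the co-receptor RET, and the circulating hormone lowers food intake and causes aversion. In hepatocytes and other cells its gene is a known target of the integrated stress response, in which kinases of eIF2 alpha raise the translation of the transcription factor ATF4 and, with it, CHOP. The factors p53, EGR1 and AP-1 are also known to act on it. Palmitate is a saturated fatty acid used to load hepatocytes with lipid, and RIPK3 is the kinase that phosphorylates MLKL in necroptosis.

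The gene carries the identifier ENSMUSG00000038508 and lies on the minus strand of chromosome 8 at 70629393 to 70632456 (build mm10). Its length in the deposited tables, 1852 bases, equals the union of the GENCODE M21 exons of its 2 annotated transcripts. Gdf15-201 has 2 exons, at 70631333 to 70632095 and 70629393 to 70630174. Gdf15-202 has 3 exons, of which the outermost 5′ exon at 70632150 to 70632456 belongs to it alone. Both transcripts hold the same 909 coding bases before the stop codon, and the gene-level counts do not separate them. No other annotated gene overlaps Gdf15, so its reads have no antisense or overlapping partner in that annotation.

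The 250 bases before the outermost annotated start are shown because known regulators of the gene act from its promoter. They are the RefSeq sequence of build GRCm38.p6, minus strand, at chr8:70632457-70632706, all in lower case because no searched motif was found in them.
Gdf15 upstream window: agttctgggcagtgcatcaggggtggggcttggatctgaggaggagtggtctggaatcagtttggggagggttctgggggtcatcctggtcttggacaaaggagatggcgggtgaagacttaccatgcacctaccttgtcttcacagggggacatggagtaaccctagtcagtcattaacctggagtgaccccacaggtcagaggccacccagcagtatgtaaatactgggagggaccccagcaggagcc
Its GC content was 56.4%, against a median of 52.4% over the 32851 RefSeq promoter windows of 27025 genes. Each motif was searched on both strands. The letters CCAAT, read by nuclear factor Y, occur in 33.8% of all such windows. The Sp1 motif GGGCGG occurs in 32.7% of them. The core promoter motif TATAAA occurs in 12.4% of them. The AP-1 motif TGACTCA occurs in 4.46% of them. A part of the cyclic AMP response element, TGACG, occurs in 17.8% of them. The composite element of C/EBP and ATF factors, TGATGNAA, occurs in 3.45% of them. The AP-1 and cyclic AMP motifs share their first 4 letters but cannot match at the same place, and no other 2 of the motifs hold one another. RefSeq gives a further window before the start of Gdf15-201, at 70632096 to 70632345, which held 1 CCAAT match on the opposite strand and 0 of the other 5 motifs. The matches describe these letters in these windows, and their absence says nothing about binding.

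Depth and sample identity bear on these values as follows. Library totals, worked out from the deposited counts and FPKM, were 21.2 M to 30.1 M reads. Ripk3 reads over the 5 libraries of a group were 97 in untreated WT, 114 in palmitate-treated WT, 22 in untreated Ripk3-/- and 29 in palmitate-treated Ripk3-/- cells, so the targeted transcript was lower, though not at 0, in the knockout. No pair of libraries within a group agreed within sampling noise, since the chi-square of their counts per degree of freedom was at least 2.61 over 40 pairs. Untreated Ripk3-/- replicate 1 stood apart in its group, with 34.5 to 47.4 by this measure against at most 16.1 elsewhere. Among cell type markers with values in all 20 libraries, the summed FPKM of 10 of 14 hepatocyte markers ranged from 327 to 395 in WT libraries and from 217 to 245 in Ripk3-/- libraries. Most of that sum was Ambp, at 292 FPKM in untreated WT and 182 in untreated Ripk3-/- cells, and single markers went both ways: in Ripk3-/- cells 2 were called higher and 6 lower untreated, and 5 higher and 6 lower with palmitate. The sum leaves out Ttr, which had no value in untreated Ripk3-/- cells. With palmitate Ttr went the other way, at 371 FPKM in WT and 481 in Ripk3-/- cells, more than the whole sum. Hnf4a, also left out, was at 39.0 and 41.8 with palmitate. The summed FPKM of 4 of 7 cholangiocyte markers (Sox9 and Krt19 among them) was 856 to 969 in untreated WT, 1044 to 1087 in palmitate-treated WT, 1046 to 1154 in untreated Ripk3-/- and 1186 to 1260 in palmitate-treated Ripk3-/- cells. Of 9 mesenchymal markers Des and Vim had values throughout (165 to 204 in sum), of 7 leukocyte markers Cd68 alone did (0.641 to 2.02), and of 6 endothelial markers none did. No marker with values in all libraries had a mean of 0 in any group, and the part of these shifts in the Gdf15 differences was not tested.

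Gdf15 was detected in every library with 720 to 1316 reads. Its normalised read count, scaled jointly over all 20 libraries, was 650, 644, 678, 740 and 688 in untreated WT replicates 1 to 5. In untreated Ripk3-/- cells it was 865, 890, 721, 942 and 940. The WT libraries lay close together, whereas replicate 3 of the untreated knockout fell below its 4 companions and below WT replicate 4. With palmitate the count was 1091, 1072, 1120, 962 and 1087 in WT cells and 1218, 1243, 1240, 1163 and 1087 in Ripk3-/- cells. All 10 palmitate libraries therefore lay above all 10 untreated ones, the lowest of them being WT replicate 4.

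**Figure D1:**
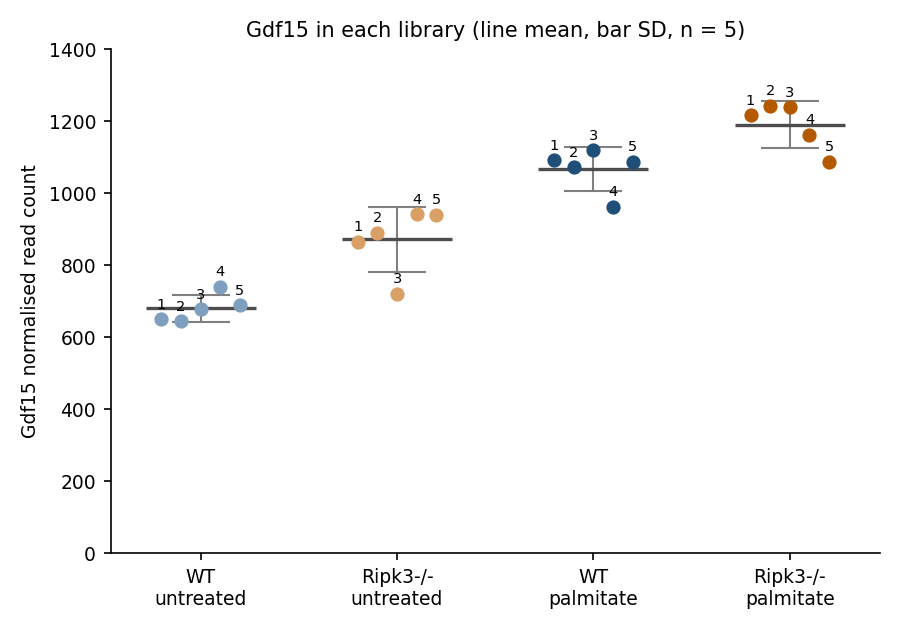
Normalised read count of Gdf15 (y axis) in each of the 20 libraries, grouped on the x axis, with the replicate number above each point, a line at the group mean and a bar of 1 SD. The untreated libraries lie between 644 and 942 and the palmitate libraries between 962 and 1243.

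Group means were 680 ± 38.6 in untreated WT, 872 ± 90.3 in untreated Ripk3-/-, 1066 ± 60.9 in palmitate-treated WT and 1190 ± 65.8 in palmitate-treated Ripk3-/- cells (SD, n = 5 each). Per gene length this was 14.7 ± 0.843, 18.9 ± 1.96, 23.0 ± 1.32 and 25.7 ± 1.41 FPKM in the same order. The coefficient of variation was 10.4% in untreated Ripk3-/- cells and 5.53% to 5.71% in the other 3 groups, against 3.02% to 3.65% from counting alone. In these bulk samples a larger share of expressing cells and more RNA per cell cannot be told apart.

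The 6 pairs of groups were compared with a two-sided exact permutation test, whose smallest possible p with 5 against 5 libraries is 0.00794, and p-values were adjusted over the 6 pairs. From the lowest group to the next, untreated Ripk3-/- exceeded untreated WT 1.28-fold, with 24 of 25 library pairs in that order (exact p = 0.0159, adjusted 0.0190). Palmitate-treated WT then exceeded untreated Ripk3-/- 1.22-fold with no overlap (exact p = 0.00794, adjusted 0.0119). Palmitate-treated Ripk3-/- exceeded palmitate-treated WT 1.12-fold, with 23 of 25 library pairs in that order (exact p = 0.0238, adjusted 0.0238). From the lowest to the highest group the difference was 1.75-fold. This order of the 4 means was the same when any 1 of the 20 libraries was left out.

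Palmitate raised Gdf15 in WT cells 1.57-fold (95% CI 1.46 to 1.69, log2 fold change 0.65 ± 0.05 SE, adjusted p = 6.93e-08 by edgeR's quasi-likelihood test). The 5 treated and 5 untreated libraries did not overlap, as was so for 70.1% of the genes listed in that table, and 14.6% of all genes tested were called in it. Of the 1220 genes listed as higher, Gdf15 ranked at 292 by size, above 76.1% of them, and their median was 0.30 on the log2 scale. The authors' deposited table gives it a log2 fold change of 0.65 with an adjusted p of 1.08e-29. Leaving out single libraries gave 0.63 to 0.68.

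In Ripk3-/- cells palmitate raised Gdf15 1.37-fold (95% CI 1.24 to 1.51, log2 0.45 ± 0.07 SE, edgeR adjusted p = 0.000647). The groups again did not overlap, as for 66.1% of the genes listed there, and 7.56% of tested genes were called. Its rank was 298 among 742 genes listed as higher, whose median log2 fold change was 0.35. The authors' deposited table gives 0.45 with an adjusted p of 8.00e-09. Without untreated Ripk3-/- replicate 3, the low library of its group, the value was 0.39, and without replicate 1, the library that stood apart, it was 0.45 (adjusted p = 0.00320).

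Between genotypes, Gdf15 was higher in Ripk3-/- cells both with and without palmitate. Untreated, the difference was 1.28-fold (95% CI 1.16 to 1.42, log2 0.36 ± 0.07 SE, edgeR adjusted p = 0.00324), in a comparison that called 14.5% of tested genes. Its groups overlapped, whereas those of 57% of the genes listed there did not. The authors' deposited table gives 0.36 with an adjusted p of 2.81e-05. It ranked at 538 of 1464 genes listed as higher, and the value was 0.42 without untreated Ripk3-/- replicate 3 and 0.36 without replicate 1 (adjusted p = 0.00201). With palmitate the difference was 1.12-fold (95% CI 1.04 to 1.20, log2 0.16 ± 0.05 SE, edgeR adjusted p = 0.0145), in a comparison that called 24.2% of tested genes. The groups overlapped here too, whereas those of 70.5% of the listed genes did not. The authors' deposited table gives 0.16 with an adjusted p of 0.0112. There it ranked at 1498 of 2172 genes listed as higher, below their median log2 of 0.23. This call rested on 1 library: without palmitate-treated WT replicate 4, the lowest of its group, the log2 difference was 0.12 with an adjusted p of 0.0545. Of the 14 hepatocyte markers, 2 were called higher and 6 lower in untreated Ripk3-/- cells, and 5 higher and 6 lower with palmitate. Of 7 cholangiocyte markers, 2 were called higher and 1 lower untreated, and 3 higher and 2 lower with palmitate. The summed FPKM of 4 of these 7 was higher in Ripk3-/- cells, as given above. Over all tested genes, 7.08% were called higher and 7.42% lower untreated, and 12.1% in each direction with palmitate.

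The log2 rise with palmitate was smaller in Ripk3-/- than in WT cells by 0.20, but this difference did not pass the correction. In a joint edgeR fit of the 2993 genes with counts in all 20 libraries, the interaction was -0.20 ± 0.09 SE (95% CI -0.38 to -0.02, unadjusted p = 0.0343, adjusted p = 0.836), and 118 genes had a smaller p. In that fit 172 genes (5.75%) had an unadjusted p under 0.05 and 0 (0%) were called by edgeR, 0 by limma and 6 by DESeq2, Gdf15 not being one of these. On the linear scale the mean normalised count rose by 386 in WT and by 318 in Ripk3-/- cells. Without untreated Ripk3-/- replicate 3 the interaction was -0.26 by edgeR (unadjusted p = 0.00184, adjusted p = 0.381), the strongest of 20 fits that left out 1 library. The weakest, without palmitate-treated Ripk3-/- replicate 5, was -0.17 (unadjusted p = 0.0717, adjusted p = 0.959). The unadjusted p thus passed 0.05 or not depending on single libraries.

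**Figure D2:**
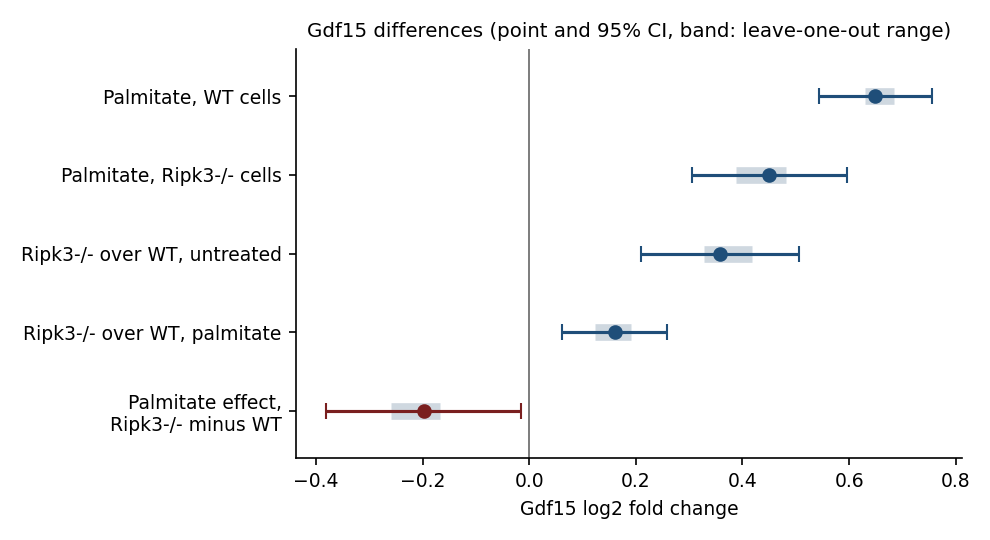
Log2 fold change of Gdf15 (x axis) for the 4 comparisons of groups and for the palmitate effect in Ripk3-/- minus that in WT cells, with 95% confidence intervals as bars and the range over fits that leave out 1 library as a grey band. The palmitate values, 0.65 and 0.45, lie to the right of the genotype values, 0.36 and 0.16, and the interval of the interaction runs from -0.38 to -0.02.

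In all, 8 gene lists around Gdf15 were then described by the number of their members that were listed and called, since each deposited table holds only genes past the authors' threshold and an absent gene has no value. With palmitate 8.4% of tested genes were called higher and 6.25% lower in WT cells, and 4.41% and 3.15% in Ripk3-/- cells. For genotype the shares were 7.08% higher and 7.42% lower untreated, and 12.1% in each direction with palmitate. The split depended on scaling for palmitate: in WT cells 1156 of 2016 called genes were higher with the authors' size factors and 690 of 1644 with DESeq2 size factors computed from the listed genes, and in Ripk3-/- cells 567 of 973 and 352 of 926. In the untreated genotype comparison 1141 of 2336 called genes were higher, and 1384 of 2337 with TMM scaling.

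Genes of the integrated stress response, the pathway best known for inducing Gdf15, were mostly higher with palmitate. In WT cells 28 of 41 members were called higher and 2 lower, and the 31 listed members had a median log2 fold change of 0.32 against 0.12 over all listed genes. Slc7a11, the cystine importer, rose by 2.30 ± 0.09 SE on the log2 scale, from 167 ± 23.2 to 823 ± 84.9 normalised counts (edgeR adjusted p = 6.61e-11). Aldh1l2, a mitochondrial folate enzyme, rose by 1.97 ± 0.10 SE (adjusted p = 1.32e-09). Ddit3, which encodes CHOP, rose by 0.49 ± 0.07 SE (adjusted p = 4.67e-05), and Atf4 itself by 0.15 ± 0.03 SE (adjusted p = 0.00400), a call that DESeq2 size factors computed from the listed genes ended at 0.09. Eif2ak3, the eIF2 alpha kinase PERK, fell by 0.17 on the log2 scale and Vldlr, a lipoprotein receptor, by 0.13. The Vldlr call ended, at -0.13 to -0.10, without any 1 of 5 libraries, namely untreated WT replicates 1 and 2 and palmitate-treated WT replicates 1, 3 and 4. The other eIF2 alpha kinases, Eif2ak1, Eif2ak2 and Eif2ak4, were not listed in any table.

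In Ripk3-/- cells 13 of the 41 integrated stress response members were called higher with palmitate and 0 lower, with a median over the 17 listed of 0.27 against 0.16 over all listed genes, and 12 were higher without untreated Ripk3-/- replicate 1. TMM scaling, DESeq2 size factors and the DESeq2 test each called 1 member lower. Aldh1l2 rose by 1.95 ± 0.11 SE, Slc7a11 by 1.67 ± 0.11 SE and Ddit3 by 0.40 ± 0.08 SE (edgeR adjusted p = 7.04e-08, 4.06e-07 and 0.00711). Eif2ak3 had a log2 fold change of -0.11 with an adjusted p of 0.0685, and Atf4 was not listed.

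Between genotypes, members of the same list were called in both directions. Untreated, 4 members were called higher and 3 lower in Ripk3-/- cells (3 and 2 without untreated Ripk3-/- replicate 1), with a median over the 8 listed of 0.15 against 0.10. Slc7a1, a cationic amino acid transporter, was higher by 0.30 ± 0.06 SE and Stc2, a secreted glycoprotein, lower at -0.26 ± 0.06 SE. Trib3, a pseudokinase induced by CHOP, was higher by 0.24, Vldlr lower at -0.20 and Eif2ak3 lower at -0.10. The Trib3 call ended without any 1 of 8 of the 10 libraries (0.20 to 0.26) and that of Eif2ak3 without any 1 of the 10 (-0.11 to -0.08). With palmitate, 2 members were called higher and 7 lower, while Gdf15 was higher. The median over the 11 listed was -0.18 against 0.06 over all listed genes. Slc7a11 was lower at -0.43 ± 0.07 SE (adjusted p = 0.000218) and Cth, the enzyme that makes cysteine from cystathionine, at -0.37 ± 0.08 SE (adjusted p = 0.00181), while Slc7a1 was higher by 0.17 and the glycyl-tRNA synthetase gene Gars by 0.09.

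**Figure D3:**
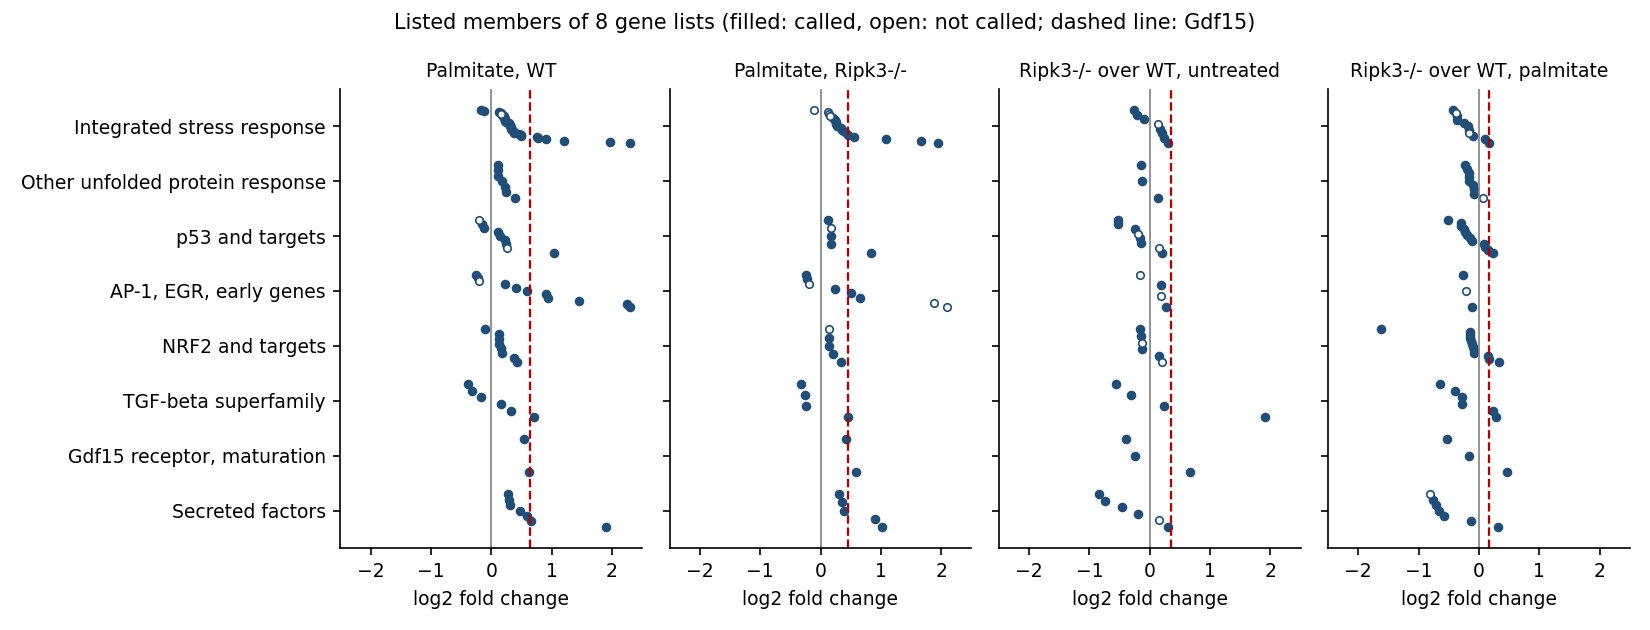
Log2 fold change (x axis) of the listed members of 8 gene lists in the 4 comparisons, with called genes as filled and other listed genes as open points, spread vertically by rank within a list, and the value of Gdf15 as a dashed line. In the palmitate panels most integrated stress response members lie to the right of 0, and in the last panel 9 of the 11 listed lie to the left of 0 while Gdf15 lies at 0.16. Inhbe, with 2 reads in 1 of the groups, is not drawn.

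Chaperones and other genes of the unfolded protein response outside the ATF4 arm were called higher with palmitate in WT cells for 7 of 18 members and lower for 0, although TMM and DESeq2 scaling over the listed genes each left 4 of these calls. Creld2, an endoplasmic reticulum disulfide protein, rose by 0.39 ± 0.05 SE (edgeR adjusted p = 1.22e-05) and Hspa5, which encodes the chaperone BiP, by 0.24 ± 0.03 SE (adjusted p = 1.03e-05). In Ripk3-/- cells none of the 18 was listed. Untreated, Pdia4 was higher in Ripk3-/- cells at 0.13, and Calr and the co-chaperone Dnajc3 were lower at -0.15 and -0.14. TMM scaling ended both lower calls, the Pdia4 call ended without any 1 of 7 libraries (0.10 to 0.14) and the Calr call without any 1 of 6 (-0.15 to -0.13), and the Dnajc3 call without untreated WT replicate 5 (-0.13). With palmitate 0 members were called higher and 8 lower in Ripk3-/- cells (the DESeq2 test called 1 higher), Dnajc3 at -0.24 ± 0.03 SE and Calr at -0.19 ± 0.03 SE.

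Of 28 members of the p53 list, 5 were called higher and 2 lower with palmitate in WT cells and 4 higher and 0 lower in Ripk3-/- cells. Under TMM or DESeq2 scaling the higher count fell to 2 in WT cells, and in Ripk3-/- cells to 2 and 1. Ckap2, a spindle protein gene, rose by 1.04 ± 0.07 SE in WT and 0.83 ± 0.13 SE in Ripk3-/- cells (edgeR adjusted p = 2.45e-08 and 0.00100). Mdm2, the ubiquitin ligase of p53, rose by 0.24 ± 0.03 SE in WT and 0.17 in Ripk3-/- cells, and Ccng1 by 0.17 in Ripk3-/- cells, a call that DESeq2 scaling ended at 0.09. Trp53 was called lower in WT cells at -0.11 and Pmaip1, a pro-apoptotic BH3 gene, at -0.15. Those calls ended without any 1 of 7 libraries for Trp53 (-0.11 to -0.09) and of 6 for Pmaip1 (-0.16 to -0.11), and Trp53 was not listed elsewhere. In the Ripk3-/- palmitate comparison 2 members were higher without untreated Ripk3-/- replicate 1.

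Untreated, 1 p53 list member was called higher and 5 lower in Ripk3-/- cells (0 and 3 without untreated Ripk3-/- replicate 1, 2 and 1 with TMM scaling). The death receptor gene Fas was lower at -0.53 ± 0.06 SE (edgeR adjusted p = 7.65e-05). Ddit4l was lower at -0.53 and Gadd45a higher at 0.21, and these calls ended without any 1 of 8 libraries (-0.55 to -0.42) and 7 libraries (0.17 to 0.22). With palmitate 4 were called higher and 8 lower, with Fas at -0.51 ± 0.05 SE and Pmaip1 at 0.23 ± 0.04 SE. Ddit4l at -0.30 and Rrm2b at 0.14 each lost their call without any 1 of 5 libraries, in ranges of -0.30 to -0.23 and 0.11 to 0.14.

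Of 19 AP-1, EGR and immediate early genes, 8 were called higher and 2 lower with palmitate in WT cells. The 11 listed had a median log2 fold change of 0.58 against 0.12 over all listed genes. Fosb rose by 2.30 ± 0.23 SE and Fos by 2.25 ± 0.17 SE (edgeR adjusted p = 6.87e-06 and 6.14e-07). Fos reads went from 134 to 210 per library untreated to 460 to 1111 with palmitate, with no overlap. Egr1, a zinc finger factor, rose by 1.46 ± 0.21 SE (adjusted p = 0.00161) and was listed in no other table. Fosl2 and Srf fell by 0.25 and 0.22.

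In Ripk3-/- cells 3 immediate early genes were called higher and 2 lower with palmitate (3 and 1 without untreated Ripk3-/- replicate 1). The higher count was 5 with the DESeq2 test. Klf4 rose by 0.66 ± 0.12 SE and Ier2 by 0.51 ± 0.10 SE (edgeR adjusted p = 0.00327 and 0.00451). Srf was called lower at -0.23, and Fosl2 at -0.25, a call that ended without any 1 of 6 libraries (-0.25 to -0.21). Fos had 55 to 283 reads per untreated library and 192 to 1190 per palmitate library, and its log2 fold change of 1.88 ± 0.59 SE was not called (adjusted p = 0.117). Fosb was similar at 2.09 ± 0.71 SE (adjusted p = 0.161).

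In the genotype comparisons the immediate early list held few calls. Untreated, Dusp1 was higher in Ripk3-/- cells at 0.27 ± 0.07 SE and Ier2 at 0.18, the latter call ending at 0.16 to 0.17 without untreated WT replicate 1, 2 or 5 or untreated Ripk3-/- replicate 2. No member was called lower there, but 1 was without untreated Ripk3-/- replicate 1. With palmitate 0 were called higher and 2 lower, Ier5 at -0.11 and Junb at -0.26, the Junb call ending without any 1 of 6 libraries (-0.27 to -0.23).

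NRF2 target genes, which encode antioxidant enzymes, were called higher with palmitate for 7 of 18 members in WT cells and 4 of 18 in Ripk3-/- cells. These counts fell to 3 and 2 under TMM or DESeq2 scaling, and to 3 in Ripk3-/- cells without untreated replicate 1. Hmox1, which encodes heme oxygenase, rose by 0.43 ± 0.04 SE in WT and 0.35 ± 0.04 SE in Ripk3-/- cells (edgeR adjusted p = 1.82e-06 and 7.42e-05). Gclc, a subunit of the enzyme that starts glutathione synthesis, rose by 0.38 and 0.20, and catalase (Cat) was called lower in WT cells at -0.10.

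Between genotypes, NRF2 list members were called lower in Ripk3-/- cells more often than higher, while Gdf15 was higher. Untreated, 1 was called higher and 3 lower in Ripk3-/- cells (2 and 3 without untreated Ripk3-/- replicate 1, and 1 lower with TMM scaling). Taldo1 was higher at 0.15, Cat lower at -0.14, Keap1 at -0.16 and Nfe2l2, which encodes NRF2, at -0.12. Apart from Cat these calls each ended without any 1 of several libraries, 7 for Taldo1 (0.12 to 0.16), 5 for Keap1 (-0.15 to -0.13) and 6 for Nfe2l2 (-0.13 to -0.11). With palmitate 3 were called higher and 9 lower, with a median over the 12 listed of -0.11 against 0.06. Thioredoxin (Txn1) was higher at 0.33 ± 0.05 SE and Nfe2l2 lower at -0.16 ± 0.04 SE. Nqo1 was lower at 2.54 ± 1.78 against 7.84 ± 3.34 normalised counts (SD, n = 5 each), too few for a firm fold.

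Gdf15 had the highest FPKM among the listed TGF-beta superfamily and follistatin genes with palmitate, where it was 23.0 in WT and 25.7 in Ripk3-/- cells. In untreated WT cells Inhbb at 21.8, Tgfb3 at 17.5 and Lefty1 at 15.2 FPKM exceeded the 14.7 of Gdf15, the last by less than their SDs of 0.794 and 0.843. In untreated Ripk3-/- cells Inhbb at 21.5 ± 0.871 FPKM exceeded the 18.9 ± 1.96 of Gdf15 (SD). With palmitate 3 of 38 superfamily members were called higher and 3 lower in WT cells, where 32 were not listed, and 1 higher and 3 lower in Ripk3-/- cells. The activin subunit gene Inhba rose by 0.71 ± 0.10 SE in WT cells (edgeR adjusted p = 6.09e-05). It was at 0.46 in Ripk3-/- cells, where its call ended without any 1 of 8 libraries (0.38 to 0.49), untreated Ripk3-/- replicate 1 among them, and with DESeq2 scaling (0.38). Inhbb fell by 0.32 in both genotypes (adjusted p = 9.62e-06 and 0.000634). Bmp4 rose by 0.33 and Tgfb2 fell by 0.39 in WT cells. The activin-binding protein gene Fstl3 was at -0.25 in Ripk3-/- cells, a call that ended without any 1 of 9 libraries (-0.28 to -0.21), and without untreated Ripk3-/- replicate 1 the counts there were 0 higher and 2 lower.

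Between genotypes 2 superfamily members were called higher and 2 lower in untreated Ripk3-/- cells, and 2 higher and 5 lower with palmitate. Tgfb3 was lower at -0.56 ± 0.05 SE and -0.64 ± 0.04 SE, Fstl3 was lower at -0.31 ± 0.06 SE in untreated cells, and the nodal inhibitor gene Lefty1 was higher by 0.23 and 0.29. Tgfb2 was higher at 0.24 with palmitate. Fst (follistatin) had 34 reads over the 5 untreated Ripk3-/- libraries and 10 over the WT ones, a ratio of 3.95 per library read (95% exact counting interval 1.91 to 8.96), and its call ended without WT or Ripk3-/- replicate 2 (1.74 to 1.84). Inhbe, a hepatocyte activin subunit gene, had 36 reads over the 5 palmitate-treated WT libraries and 2 over the Ripk3-/- ones, a ratio of 16.0 (4.13 to 137). These intervals cover counting error only.

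**Figure D4:**
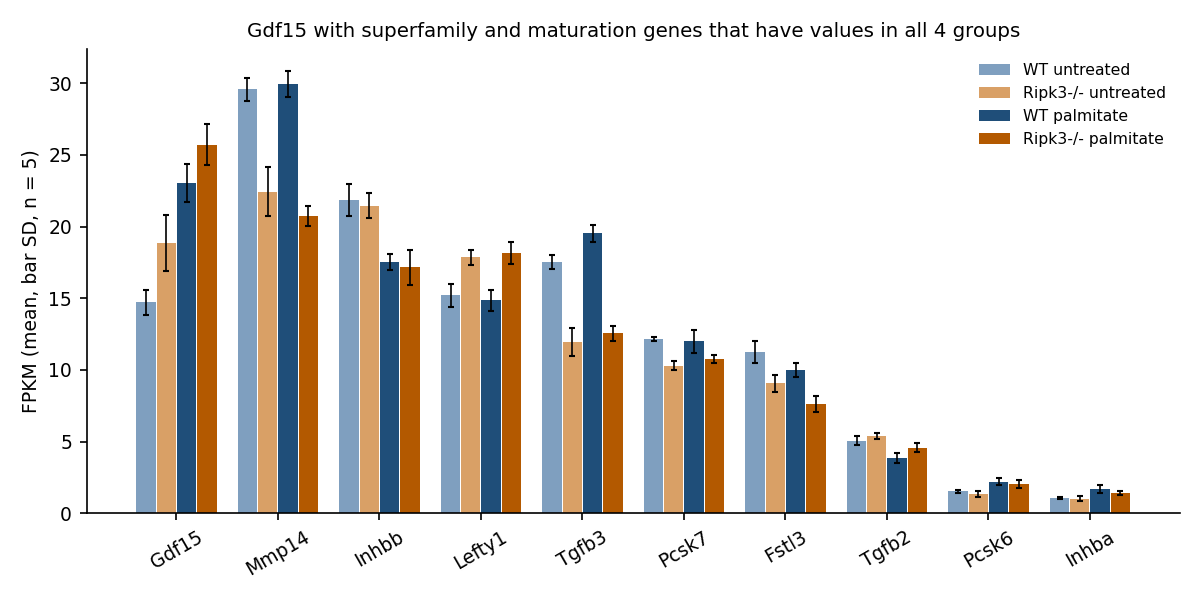
FPKM (y axis, mean with SD bars, n = 5) of Gdf15 and of superfamily, follistatin and maturation genes that have values in all 4 groups (x axis), with 1 bar per group. Gdf15 steps up from 14.7 to 25.7 over the 4 groups, whereas Inhbb is lower with palmitate and Tgfb3 and Mmp14 are lower in Ripk3-/- cells.

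For the receptor and the maturation of the protein, neither Gfral nor Ret was listed in any table, nor was the convertase gene Furin. Of the 8 genes of that list, 2 were called higher with palmitate in each genotype. Pcsk6, a convertase of TGF-beta family precursors, rose by 0.55 ± 0.09 SE in WT and 0.58 ± 0.13 SE in Ripk3-/- cells (edgeR adjusted p = 0.000234 and 0.00993). Mmp14, a membrane protease, was lower in Ripk3-/- cells at -0.40 ± 0.05 SE and -0.53 ± 0.03 SE, and Pcsk7 at -0.24 and -0.16.

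Among 30 other secreted hepatocyte factors and stress cytokines, 7 were called higher and 0 lower with palmitate in WT cells, and 5 higher and 0 lower in Ripk3-/- cells. Fgf21, a stress hormone of the liver, was not listed in any table. The chemokine gene Cxcl10 rose by 1.91 ± 0.20 SE in WT and 1.03 ± 0.19 SE in Ripk3-/- cells (edgeR adjusted p = 2.50e-06 and 0.00327), and Angptl6 by 0.66 ± 0.14 SE and 0.90 ± 0.15 SE. Between genotypes more members were called lower than higher in Ripk3-/- cells. Untreated, 1 was called higher and 4 lower in Ripk3-/- cells, and with palmitate 1 higher and 6 lower. Selenop, the selenium carrier, was the member called higher, by 0.31 and 0.32, and 2 were higher untreated with TMM scaling or the DESeq2 test. Lect2, a hepatokine, was lower in Ripk3-/- cells at -0.74 ± 0.09 SE and -0.77 ± 0.06 SE.

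The genes whose levels ran most like Gdf15 over the 20 libraries were found by Pearson's r of log2(normalised count + 1) among 2992 genes. These libraries form 4 groups, so r mostly follows the group means and is given as a description. The 10 highest were Pold1, a DNA polymerase delta subunit (0.960), the tryptophanyl-tRNA synthetase gene Wars (0.959), the lipid droplet coat gene Plin2 (0.958), Emp1 (0.957), Tmem97 (0.947), the glutamine transporter gene Slc1a5 (0.941), the replication licensing gene Cdt1 (0.940), the desaturase gene Scd1 (0.939), cyclin D1 (Ccnd1, 0.938) and Cenpf, a kinetochore gene (0.937). Spearman's rho was 0.913 to 0.959 in these genes. The 5 lowest were Eif2ak3 (-0.935), Snx4 (-0.906), Sbno2 (-0.900), Nfkb1 (-0.900) and Bahcc1 (-0.898). The median r over these 2992 genes was 0.0879, its 5th and 95th percentiles were -0.762 and 0.867, and 61 genes exceeded 0.9. Each of the 2992 was called by the authors in tables that together cover all 4 groups. Their spread of r therefore does not stand for all expressed genes. After subtraction of the group means, r in the 10 highest ranged from 0.0791 for Scd1 to 0.674 for Tmem97, and 5 of the 10 were among the 100 highest by that measure.

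**Figure D5:**
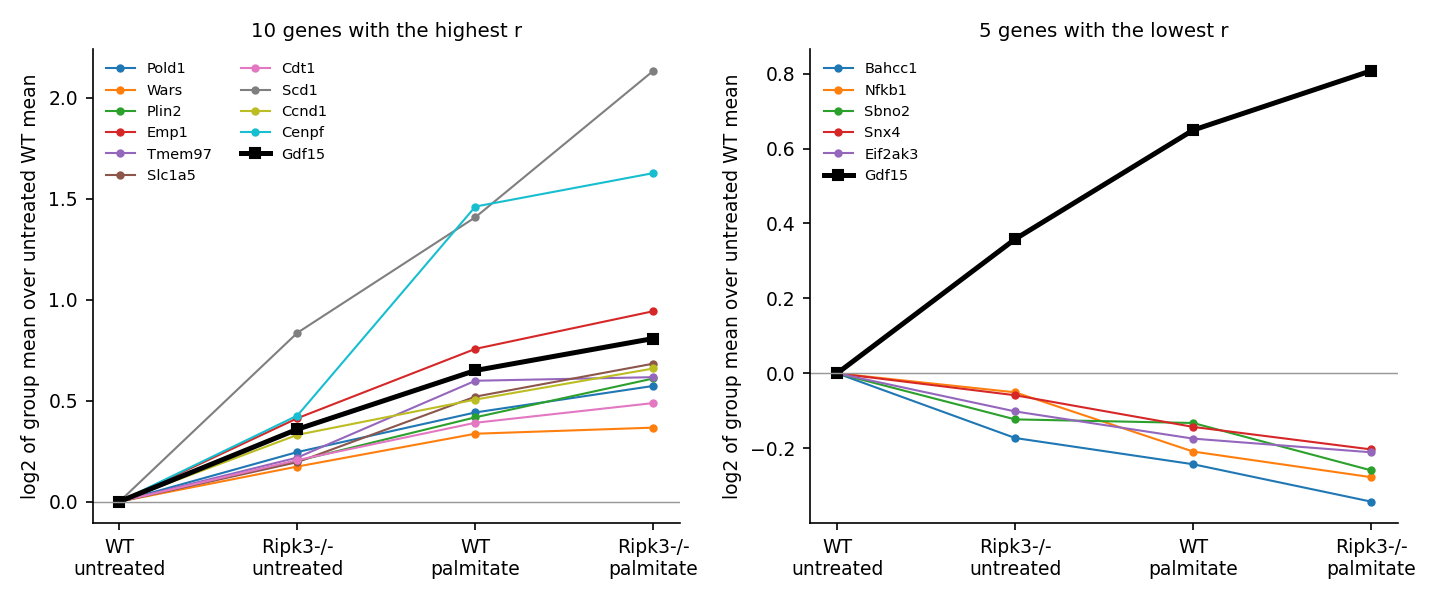
Log2 of each group mean over the untreated WT mean (y axis) in the 4 groups (x axis, in the order of Gdf15) for Gdf15 (black) and the 10 genes with the highest and the 5 with the lowest correlation over 20 libraries. The 10 genes climb with Gdf15 through the same order of groups, Scd1 the most, and the 5 genes decline.

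Among these, Scd1 rose with palmitate by 1.41 in WT and 1.30 in Ripk3-/- cells on the log2 scale and was higher in Ripk3-/- cells by 0.84 untreated and 0.73 with palmitate. Plin2 rose by 0.42 and 0.41, and was higher in Ripk3-/- cells by 0.20 and 0.19. Emp1, a membrane protein gene, rose by 0.76 and 0.53, and was higher in Ripk3-/- cells by 0.41 and 0.19. All 12 of these values were called by edgeR, as were the 4 of Gdf15, but the genes were picked by likeness in these same libraries. Pold1, Slc1a5, Ccnd1 and Cenpf also had all 4 values called. The untreated genotype calls of Pold1, Slc1a5 and Tmem97 each ended without any 1 of 6 libraries, and that of Cenpf without any 1 of 7. Cdt1 was not called between untreated genotypes (0.21, edgeR adjusted p = 0.0640). With palmitate, Wars, Tmem97 and Cdt1 were not listed between genotypes.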

How the data were processed

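RNA-seq of 20 AML-12 libraries was analysed in 4 groups of 5, taken from the sample titles. Per the submitters' processing notes, FastQC 0.11.9, HISAT2, featureCounts 1.5.0-p3 and DESeq2 were used with build mm10. Which annotation and which strandedness they used is not stated there. For each comparison the authors deposited 1 table with raw read counts, normalised counts (a signal, the count divided by 1 factor per library), FPKM and their log2 fold changes, p-values and adjusted p-values. Each table lists only genes with an adjusted p under 0.05, so unlisted genes have no value and list medians cover listed genes only. The authors' enrichment tables, with p-values and numbers of genes, were only described. The tables held 0 columns of samples from outside the series.

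Counts of each table were tested with edgeR 4.0.16 (R 4.3.3, quasi-likelihood, robust), using the size factors the authors had applied and a Benjamini-Hochberg adjustment over all genes in their own test (12871 to 17611, worked out from their p-values), with a threshold of 0.05. A gene past it is called. Because only listed genes were fitted, the dispersion trend rests on them. The difference of the palmitate effects was fitted on 2993 genes with size factors joined over the tables. Group pairs were tested by exact permutation (SciPy 1.17.1). Each fit was tested on simulated counts with known changes. Alternatives used DESeq2 1.42.0 and limma 3.58.1.

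Gdf15 and the gene lists were chosen with earlier results of these data known, so no list is independent support. Up to 4 called members per list and comparison, at most 2 per direction by size, were named, with fixed regulators, and 10 and 5 genes by likeness. Values of some list members are not reported here.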

Additional observations from a re-analysis of the deposited data

How the results depend on the processing

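Of 100 values of the 5 Gdf15 effects under alternatives, 99 kept their direction and their side of the threshold. The exception was the genotype difference with palmitate without WT replicate 4 (log2 0.12, adjusted p = 0.0545). Leaving out single libraries gave 0.63 to 0.68 for palmitate in WT cells, 0.39 to 0.48 in Ripk3-/- cells, 0.33 to 0.42 for genotype untreated, 0.12 to 0.19 with palmitate and -0.26 to -0.17 for the interaction. Other scalings, filters, pseudocounts and tools gave 0.58 to 0.65, 0.37 to 0.45, 0.34 to 0.38, 0.15 to 0.16 and -0.22 to -0.18. The adjusted p of the interaction was at least 0.381 under all its alternatives. The replicate block gave 0.65, 0.45, 0.35, 0.16 and -0.20 (adjusted p = 5.66e-08, 0.00233, 0.00338, 0.0160 and 0.770). Same-numbered libraries deviated together with correlations of -0.19 to 0.25, of which 6 of 20 exceeded 0.1. Each library correlated best with its own number in 3, 3, 2 and 4 of 5 cases. That is a hint from the data that same-numbered libraries may share more than a number. What they share is not stated in the labels and was not tested. The block moved the counts of called genes from 2016, 973, 2336, 4259 and 0 to 2085, 919, 2038, 3963 and 4. Of 2679 values of other named genes, 2439 kept their side of the threshold, 229 lost it, 11 gained it and 0 reversed. Of 288 list counts, 38 moved by over 1.5 times, among them the p53 list members higher with palmitate in Ripk3-/- over WT cells, 4 without and 2 with the block. The listed-only tables limit what absence of a gene can show, and depth limits Ripk3, Inhbe, Fst and Nqo1.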

Other observations

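Of 34 annotated genes, 26 of them protein-coding, that start within 250 kb of Gdf15, 5 were listed in any table. With palmitate only Kcnn1, a potassium channel gene, was called, lower in WT cells at -0.27 on the log2 scale (edgeR adjusted p = 0.0251), and none was listed in Ripk3-/- cells. Untreated, Isyna1, which encodes inositol-3-phosphate synthase, was higher in Ripk3-/- cells at 0.23 (adjusted p = 0.000643). With palmitate Kxd1 at 0.28, Pgpep1 at 0.19 and Isyna1 at 0.11 were higher and Ssbp4 at -0.15 was lower in Ripk3-/- cells. Over all genes tested, palmitate calls made up 14.6% in WT cells and 7.56% in Ripk3-/- cells. Genotype calls made up 14.5% in untreated cells and 24.2% under palmitate.

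Ranked by correlation after subtraction of the group means, the highest genes were Tbcd at 0.802 and E2f6 at 0.743. Their correlations with Gdf15 over all 20 libraries were 0.345 and -0.01.

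In the authors' deposited enrichment tables Gdf15 was counted in 36 GO terms and 1 KEGG term per comparison. Of those GO terms 4 had an adjusted p under 0.05 for palmitate in WT cells, 5 in Ripk3-/- cells, 4 for genotype untreated and 6 with palmitate, and 0 KEGG terms did. Over all GO terms of the authors' deposited tables the numbers were 976 of 6749, 658 of 6230, 371 of 6887 and 699 of 7037 in the same order. Response to growth factor passed in each of the 4 authors' deposited tables, with 103, 70, 118 and 163 genes.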
